A study of Mus musculus with 8 samples.

Results

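Antimicrobial and epithelial defence genes were followed in enterocytes, the absorptive cells that line the small intestine. The named set held 10 genes chosen by function: Reg3a, Reg3b, Reg3g, Nos2, Duox2, Lcn2, Saa1, Pigr, Pla2g2a and Lypd8. Every probe set whose single gene symbol was one of these names was taken, which gave 8 genes on 10 probe sets, of 10401 genes on 16689 singly named probe sets and 18443 probe sets in all. Reg3b and Pigr each had 2 probe sets. Nos2 and Duox2 are not analysed here.

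The study compared male C57BL/6 mice aged 2.5 to 3.0 months of 2 genotypes. In IE-Cpr-null mice the intestinal epithelium is without Cpr, the NADPH-cytochrome P450 reductase that donates electrons to microsomal P450 enzymes, and wild-type (WT) littermates served as controls. Both were kept on a standard diet and no agent was given. RNA of 2 mice was combined for every array and 4 arrays were run per genotype (8 mice each), so the errors below describe how pools varied. The promoter that drives the deletion, and whether WT littermates carried floxed alleles, are not stated in the labels. Values were log2 expression with the WT median of each probe set at 0, so no level of expression was known and genes cannot be ranked by abundance. All differences are IE-Cpr-null minus WT on the log2 scale, and mean values carry the SD over n = 4 pools.

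The intestinal epithelium limits contact with bacteria by several means. The Reg3 proteins are secreted C-type lectins that bind bacterial surfaces, and Reg3g and Reg3b are known to be induced through microbial sensing and interleukin-22. Lcn2 binds iron-carrying siderophores, serum amyloid A (Saa1) is an acute phase protein made by liver and gut, and Pla2g2a is a bactericidal phospholipase of Paneth cells. Pigr carries dimeric immunoglobulin A across the epithelium, and Lypd8 is a membrane-anchored protein that binds flagellated bacteria.

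Reg3b and Reg3g lie in 1 gene cluster on mouse chromosome 6 and followed each other over the arrays, so the 250 bases before each annotated start are shown first. They are RefSeq sequences of build GRCm38.p6, from chr6:78370635-78370884 on the plus strand for Reg3b and from chr6:78468875-78469124 on the minus strand for Reg3g. Capitals mark bases inside words of at least 8 bases that both windows hold.
Reg3b: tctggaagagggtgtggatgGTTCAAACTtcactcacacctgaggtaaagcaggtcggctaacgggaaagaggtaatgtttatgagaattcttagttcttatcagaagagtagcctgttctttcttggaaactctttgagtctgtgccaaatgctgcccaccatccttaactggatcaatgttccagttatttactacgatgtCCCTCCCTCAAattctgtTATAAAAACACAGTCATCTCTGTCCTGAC
Reg3g: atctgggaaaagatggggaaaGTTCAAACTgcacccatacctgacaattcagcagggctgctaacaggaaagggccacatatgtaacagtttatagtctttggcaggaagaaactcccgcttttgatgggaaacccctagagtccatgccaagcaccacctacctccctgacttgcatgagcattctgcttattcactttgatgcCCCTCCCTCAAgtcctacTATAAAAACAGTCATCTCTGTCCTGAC

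In a global alignment the windows shared 173 of 253 columns (68.4%). The shared words covered 49 bases of the Reg3b window and 47 of the Reg3g window, and the longest stretch ended at the base before the start in both. The TATA box letters TATAAA began 29 bases before the start in Reg3b and 27 in Reg3g. On either strand they were present in 12.4% of the 32851 windows of this length in the promoter table. The STAT palindrome TTCNNNGAA occurred in the Reg3b window, as TTCTTGGAA beginning 129 bases before the start, and in 7.02% of all windows. These letters were not in the Reg3g window. The Reg3a window, taken from its own annotated start, held neither motif and shared 43.9% of alignment columns with Reg3b and 47.2% with Reg3g. A match is a description of letters and not a measured binding site.

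None (0) of the 10 defence probe sets passed an adjusted p of 0.05 in limma, and none (0) had an unadjusted p under 0.05. Among all probe sets, 0.0217% passed the adjusted threshold and 7.40% had an unadjusted p under 0.05. Differences were positive for 6 of the 10 and negative for 4, with a median of 0.038 against 0.016 over all probe sets. The genotypes overlapped for all 10. Over all probe sets, 1.64% had every IE-Cpr-null array above every WT array, 2.47% had every one below, and 4.11% had either. Limma adjusted p-values of the 10 ran from 0.831 to 0.938.

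**Figure D1:**
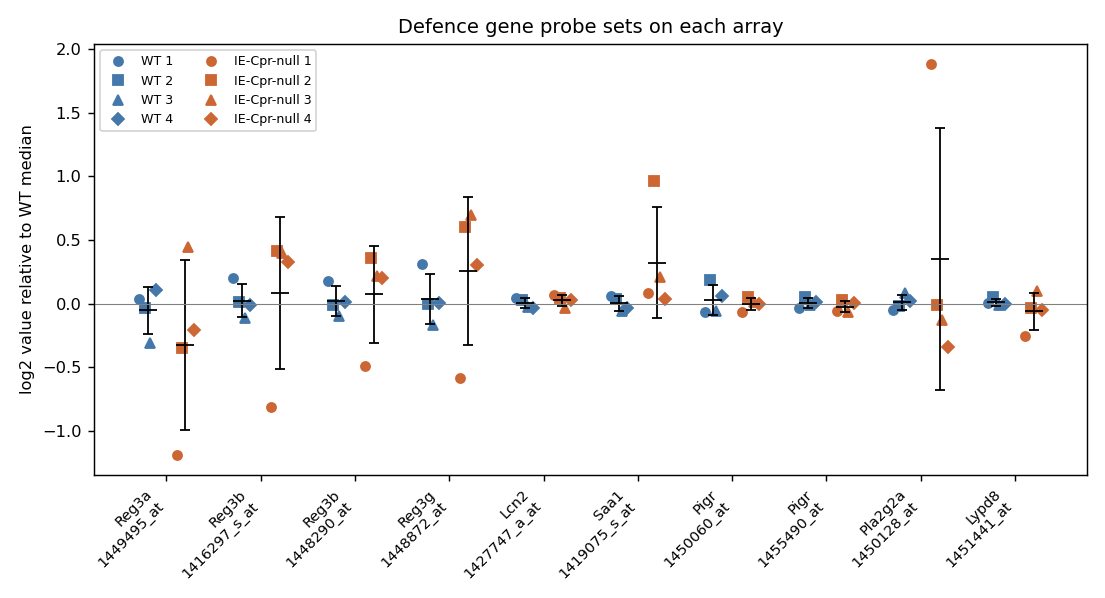
Log2 value relative to the WT median (vertical axis) of the 10 defence probe sets on each array, with WT in blue, IE-Cpr-null in orange and a marker shape for each replicate number; horizontal and vertical bars give mean and SD over 4 pools. IE-Cpr-null 1 lies below the other arrays for the 4 Reg3 probe sets, at -1.19 to -0.49, and above them for Pla2g2a, at 1.88.

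Whole-table properties touch several of these values. Marker means for other cell types differed between arrays of 1 genotype. Muscle and stroma markers (12 of 14 measured) averaged 4.20 on IE-Cpr-null 1 and 1.70 on WT 2, and -0.43 to 0.18 elsewhere. Hepatocyte markers (14 of 18) averaged 4.75 and 2.63 on IE-Cpr-null 2 and 3, and -0.057 to 0.14 elsewhere. Pancreatic acinar markers (15 of 18) averaged -3.74 on WT 3 and -0.59 to 1.36 on the other WT arrays, with -1.44 on IE-Cpr-null 1 and -4.01 to -3.85 on IE-Cpr-null 2 to 4. Enterocyte markers (12 of 14) stayed near the WT median, from -0.079 to 0.023 on 7 arrays and at -0.17 on IE-Cpr-null 1. In bulk RNA, fewer cells of a type and less RNA per cell cannot be told apart. The transcript of the deleted gene is not analysed here and gave no check of the genotypes.

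Among the Reg3 lectins, Reg3b and Reg3g varied together over the arrays and Reg3a less closely so. Reg3g, the lectin known for killing Gram-positive bacteria, was 0.31, -0.00095, -0.17 and 0.00095 on WT 1 to 4, and -0.58, 0.60, 0.70 and 0.30 on IE-Cpr-null 1 to 4. IE-Cpr-null 1 was the lowest of all 8 arrays, IE-Cpr-null 2 and 3 lay above every WT array, and IE-Cpr-null 4 fell just under WT 1. Means were 0.035 ± 0.20 (SD, n = 4) in WT and 0.25 ± 0.58 (SD, n = 4) in IE-Cpr-null. The difference of 0.22 (SE 0.276, 95% interval -0.42 to 0.86, limma adjusted p = 0.86) lay within the spread between pools.

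Reg3b, the lectin also known as pancreatitis-associated protein, had a similar pattern on both of its probe sets. Probe set 1416297_s_at, of a type whose probes can match more than 1 transcript, was 0.20, 0.011, -0.11 and -0.011 on WT 1 to 4. On IE-Cpr-null 1 to 4 it was -0.81, 0.41, 0.40 and 0.33. IE-Cpr-null 1 was again the lowest array, and the other 3 exceeded every WT array. Probe set 1448290_at was 0.18, -0.015, -0.10 and 0.015 on the WT arrays, and -0.49, 0.36, 0.22 and 0.20 on the IE-Cpr-null arrays. The group differences of 0.059 (SE 0.274, 95% interval -0.58 to 0.70, limma adjusted p = 0.938) and 0.053 (SE 0.180, 95% interval -0.37 to 0.47, adjusted p = 0.916) joined an IE-Cpr-null group that lay on both sides of WT.

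Reg3a, another lectin of this subfamily, was 0.039, -0.039, -0.31 and 0.10 on WT 1 to 4. It was -1.19, -0.35, 0.44 and -0.21 on IE-Cpr-null 1 to 4. Only IE-Cpr-null 3 exceeded the WT range, and IE-Cpr-null 1 and 2 lay below it. The difference was -0.27 (SE 0.312, 95% interval -1.0 to 0.45, limma adjusted p = 0.86).

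Over the 8 arrays the Pearson correlation was 0.985 between the Reg3b probe sets (Spearman 0.976). It was 0.949 and 0.950 between each of them and Reg3g, and 0.722 between Reg3a and Reg3g (Spearman 0.524). Within the 4 WT arrays alone, Reg3b 1416297_s_at and Reg3g correlated at 0.997, and within the 4 IE-Cpr-null arrays at 0.973. These are descriptions over points that share RNA pools and normalization. The genes whose 8 values followed Reg3g most closely were Psme1, a proteasome activator subunit (Pearson 0.977, Spearman 1), Ifi35, an interferon-induced gene (0.975, Spearman 1), and Rnf167 (0.974, Spearman 0.976). For Reg3b they were Plekhf1 (0.990), Psme1 (0.983) and Rbks (0.977), and for Reg3a Zkscan14 (0.979), Prdx2 (0.970) and Cdc5l (0.969).

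IE-Cpr-null 1 was the array richest in muscle and stroma transcripts, with Actg2, a smooth muscle actin gene, at 8.89, and the lowest in enterocyte markers (-0.17). WT 2 was also rich in muscle transcripts, with Actg2 at 4.48, and its Reg3 values lay near the WT median (Reg3g -0.00095, Reg3b 0.011 and -0.015, Reg3a -0.039). Paneth cell markers (4 of 14 measured) averaged 1.33 on IE-Cpr-null 1, while those of IE-Cpr-null 2 to 4 averaged -0.95 to -0.30. Without IE-Cpr-null 1, Reg3b 1416297_s_at differed by 0.36 (SE 0.0764, 95% interval 0.17 to 0.54, limma adjusted p = 0.178). Reg3b 1448290_at then differed by 0.24 (SE 0.0762, 95% interval 0.057 to 0.42, adjusted p = 0.32), and Reg3g by 0.50 (SE 0.137, 95% interval 0.17 to 0.83, adjusted p = 0.267). No defence probe set (0 of 10) passed the adjusted threshold in limma without it, where 0.0868% of all probe sets did. An unadjusted p under 0.05 was reached by 3 of the 10, these 3, against 11.5% of all probe sets. IE-Cpr-null 1 was the lowest array for all 3, so leaving it out had to raise their differences. Correlated with each other at 0.949 to 0.985 over the 8 arrays, they do not count as 3 separate results. Both Reg3b probe sets were then higher on every IE-Cpr-null array than on any WT array, as were 5.00% of all probe sets (5.14% were lower, and 0 of the 10).

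The signs of the Reg3a and Reg3b differences depended on single arrays. Reg3a was 0.015 without IE-Cpr-null 1. Reg3b 1416297_s_at was -0.052 without IE-Cpr-null 2, -0.047 without IE-Cpr-null 3 and -0.022 without IE-Cpr-null 4, and Reg3b 1448290_at was -0.043 without IE-Cpr-null 2. Reg3g stayed positive with any 1 array left out, at 0.071 without IE-Cpr-null 3, 0.10 without IE-Cpr-null 2 and 0.50 without IE-Cpr-null 1. Without both hepatocyte-rich arrays, IE-Cpr-null 2 and 3, the differences were -0.27 and -0.16 for Reg3b and -0.18 for Reg3g. Whether the share of muscle, acinar or Paneth RNA bears on the Reg3 values was not tested.

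**Figure D2:**
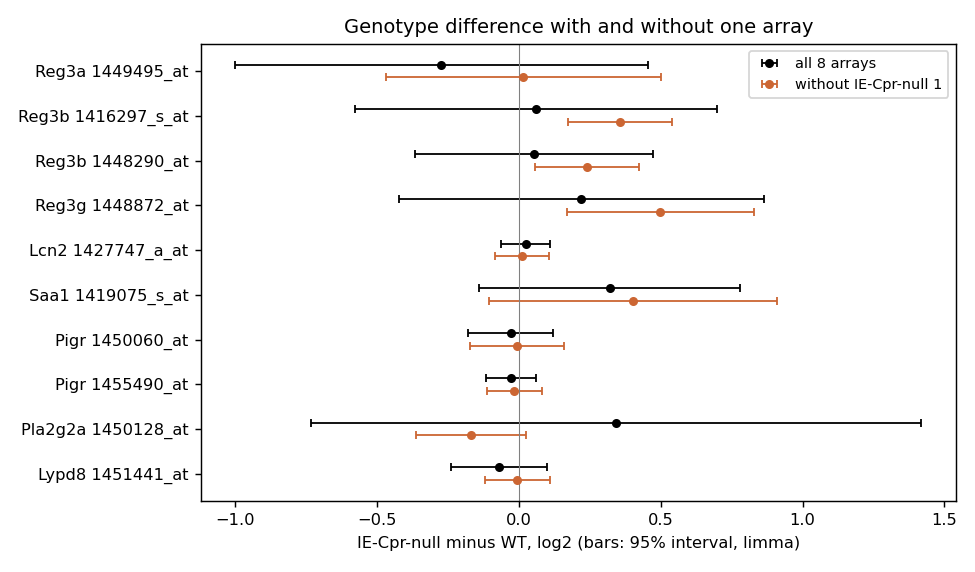
Difference between genotypes on the log2 scale (horizontal axis, points) with its 95% interval from limma (bars) for each defence probe set, over all 8 arrays in black and without IE-Cpr-null 1 in orange. All 10 intervals over all arrays span 0, and without that array those of both Reg3b probe sets (0.36 and 0.24) and of Reg3g (0.50) do not. IE-Cpr-null 1 was the lowest array for each of them.

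Among secreted proteins that bind metals or mark the acute phase, Saa1 was highest on 1 array. It was 0.060, 0.035, -0.057 and -0.035 on WT 1 to 4. On IE-Cpr-null 1 to 4 it was 0.081, 0.96, 0.20 and 0.035. IE-Cpr-null 2 stood well above the rest, IE-Cpr-null 3 was next, and IE-Cpr-null 4 lay inside the WT range. The difference was 0.32 (SE 0.197, 95% interval -0.14 to 0.78, limma adjusted p = 0.831), 0.11 without IE-Cpr-null 2, and 0.057 without both IE-Cpr-null 2 and 3.

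IE-Cpr-null 2 and 3 were also the arrays on which hepatocyte transcripts were high. Alb, the liver's albumin gene, was 9.32 and 7.91 there, 1.40 on IE-Cpr-null 4 and 0.039 on IE-Cpr-null 1. It was 1.70 on WT 2 and between -0.041 and 0.016 on the other WT arrays. Other acute phase genes had the same pair of high arrays. Hp, the haemoglobin-binding haptoglobin, was 2.59 and 0.71, Orm1, an acid glycoprotein of plasma, 1.50 and 1.50, and Hamp, the iron hormone hepcidin, 3.65 and 0.32. On IE-Cpr-null 1 and 4 these 3 genes lay between 0.023 and 0.12. Saa3, the serum amyloid of extrahepatic cells, was 0.031 and -0.014 on IE-Cpr-null 2 and 3. The genes closest to Saa1 over the 8 arrays were C9, a complement component (Pearson 0.997), Iigp1, an interferon-inducible GTPase (0.997), and Cyp2c70, a P450 of bile acid metabolism (0.997). The part of liver RNA in the Saa1 values was not tested. The annotation gives the Saa1 probe set the same accession as a Saa2 probe set, so these close copies are uncertain. That Saa2 probe set was 0.046 and -0.020 on IE-Cpr-null 2 and 3.

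Lcn2, the siderophore-binding lipocalin, was flat. It was 0.042, 0.026, -0.026 and -0.033 on WT 1 to 4, and 0.064, 0.043, -0.032 and 0.026 on IE-Cpr-null 1 to 4. The difference was 0.023 (SE 0.0373, 95% interval -0.064 to 0.11, limma adjusted p = 0.862). A profile within 0.05 of it on every array was found in 2820 other probe sets, 15.3% of the table. Of the 106 other defence genes measured, 17 had this profile, among them the neutrophil calprotectin subunits S100a8 and S100a9, the chemokines Cxcl1, Cxcl2 and Cxcl5, the cytokine genes Il1b and Ifng, and Reg3d. Of the neutrophil markers, 4 of 5 measured had it too. The genes closest to Lcn2 over the 8 arrays were Snn (Pearson 0.998), Tnnc1 (0.998) and Glycam1 (0.998). Centred values cannot say whether a transcript with this profile was expressed.

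Pigr, the immunoglobulin receptor, was flat on both probe sets. Probe set 1450060_at ran from -0.071 to 0.18 in WT and from -0.067 to 0.047 in IE-Cpr-null, a difference of -0.030 (SE 0.0638, 95% interval -0.18 to 0.12, limma adjusted p = 0.873). Probe set 1455490_at ran from -0.036 to 0.051 in WT and from -0.067 to 0.026 in IE-Cpr-null, a difference of -0.028 (SE 0.0380, 95% interval -0.12 to 0.061, adjusted p = 0.86). These intervals leave room for differences of at most 0.18 in size. The first probe set was 0.022 without WT 2, which held the highest value. Jchain, which joins immunoglobulin A into the dimer that Pigr carries, ranged far more widely, from -0.41 to 1.11 in WT and from -1.57 to 0.22 in IE-Cpr-null. Its difference was -0.74 (SE 0.466, limma adjusted p = 0.768). The genes closest to Pigr were Sp5 (0.943), Sephs2 (0.935) and Helb (0.931).

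Lypd8, which restrains flagellated bacteria, was 0.0041, 0.052, -0.015 and -0.0041 on WT 1 to 4. It was -0.26, -0.038, 0.097 and -0.049 on IE-Cpr-null 1 to 4, with IE-Cpr-null 1 the lowest and IE-Cpr-null 3 the highest of all arrays. The difference was -0.071 (SE 0.0724, 95% interval -0.24 to 0.097, limma adjusted p = 0.86), and -0.0059 without IE-Cpr-null 1. Lypd8 and Reg3a correlated at 0.955 over the 8 arrays (Spearman 0.833), at 0.991 within the IE-Cpr-null arrays and at 0.275 within WT. The closest other genes were Faah (0.983), Samhd1 (0.973) and Ap3b1 (0.966).

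Pla2g2a, the secreted phospholipase, had the widest range of the set. RefSeq lists it as a transcribed pseudogene in this strain, where the coding sequence is known to be disrupted. It was -0.051, -0.023, 0.083 and 0.023 on WT 1 to 4, and 1.88, -0.014, -0.13 and -0.34 on IE-Cpr-null 1 to 4. The value of 1.88 stood alone, and IE-Cpr-null 3 and 4 lay below every WT array. The difference of 0.34 (SE 0.462, 95% interval -0.74 to 1.42, limma adjusted p = 0.86) was -0.17 without IE-Cpr-null 1 (SE 0.0815, 95% interval -0.36 to 0.025, adjusted p = 0.503).

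On that same array all 4 measured Paneth cell markers were at their highest. Mmp7, the matrilysin that activates defensins, was 2.93 there and -1.54 to -0.36 on IE-Cpr-null 2 to 4. Itln1, an intelectin that binds microbial sugars, was 1.27 against -1.14 to -0.67, and Lyz1, the Paneth lysozyme, 1.06 against -1.14 to -0.17. Pla2g2f, a related phospholipase, reached only 0.049 there. It had the flat profile of Lcn2, which 15.3% of the table shared and which was also highest on this array (Lcn2 0.064). On WT 3, where Mmp7 was 1.48 and the Paneth mean was 0.70, Pla2g2a was 0.083, the highest WT value. The order differed on IE-Cpr-null 2 to 4, with Paneth means of -0.95, -0.30 and -0.71 and Pla2g2a at -0.014, -0.13 and -0.34. The genes closest to Pla2g2a were Col4a1, a basement membrane collagen (Pearson 0.986, Spearman 0.643), Rasa3 (0.983) and Ppp1r14a, a smooth muscle phosphatase inhibitor (0.983, Spearman 0.071). WT 2, the other muscle-rich array, had Pla2g2a at -0.023. The Spearman value of Ppp1r14a shows that its match rested on IE-Cpr-null 1. The part of Paneth or muscle RNA in the Pla2g2a value was not tested.

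**Figure D3:**
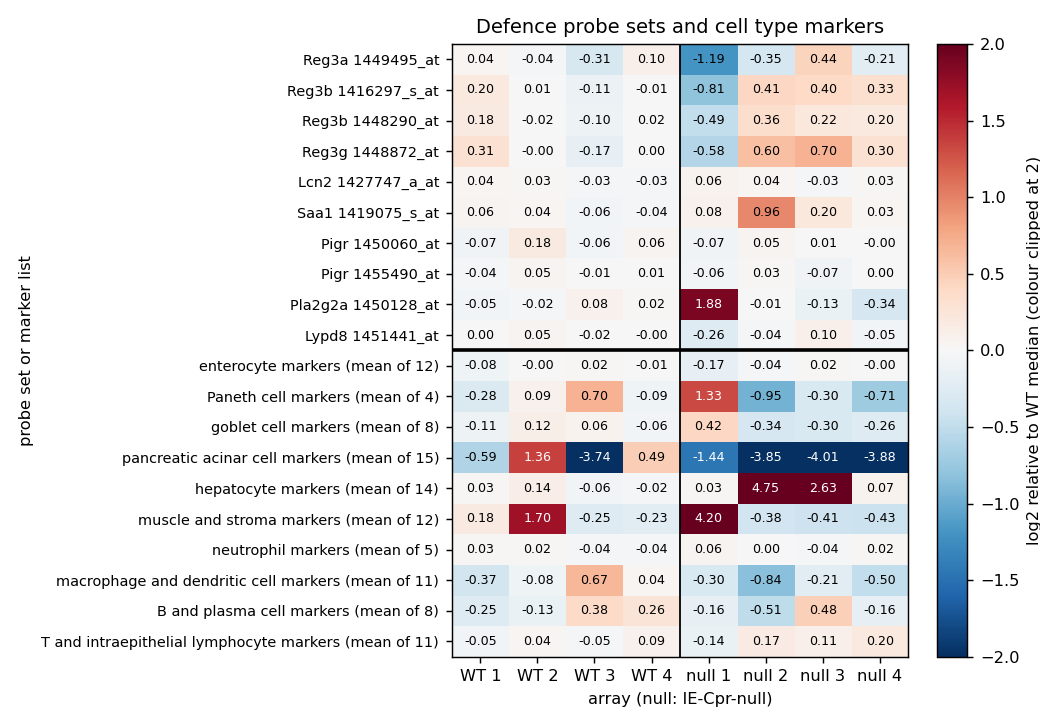
Log2 values relative to the WT median of the 10 defence probe sets (upper rows) and mean values of 10 cell type marker lists (lower rows) on each array (columns, null for IE-Cpr-null), with the colour scale clipped at 2 in either direction. IE-Cpr-null 1 combines low Reg3 values with a muscle mean of 4.20 and a Paneth mean of 1.33, and Saa1 is highest on IE-Cpr-null 2, where the hepatocyte mean is 4.75.

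Other genes of epithelial defence were read from 9 lists, each gene as the mean of its probe sets. Of 163 listed symbols, older names included, 106 were measured, 63 of them with positive and 43 with negative differences. Their median difference was 0.018, against 0.016 over all genes. None (0) passed an adjusted p of 0.05 in limma, where 0.0288% of all genes did, and 8 had an unadjusted p under 0.05, against 8.69% of all genes. The groups did not overlap for 6 genes, Relb and Tnfrsf13c higher and Ccl6, Fcgbp, Clca1 and Zg16 lower, where 4.85% of all genes did not overlap. The Tnfrsf13c groups barely parted, with 0.0214 the highest WT value and 0.0219 the lowest IE-Cpr-null value.

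In the list of microbial sensing and NF-kB genes (18 measured, 10 higher and 8 lower, median 0.031), Relb had the smallest p. This NF-kB subunit gene was -0.048, 0.051, -0.0036 and 0.0036 on WT 1 to 4 and 0.13, 0.55, 0.52 and 0.33 on IE-Cpr-null 1 to 4. Its difference was 0.38 (SE 0.0928, 95% interval 0.17 to 0.60, limma adjusted p = 0.277), and without IE-Cpr-null 1 it was 0.47 (SE 0.0607, adjusted p = 0.0431). The share of all genes passing in that setting is not given. Of all probe sets, 0.0868% passed there, against 0.0217% over all arrays. Relb was the only other defence gene to pass with any 1 array left out. Traf6, a signalling adaptor, differed by 0.11 (SE 0.0470, 95% interval 0.0032 to 0.22, limma unadjusted p = 0.0451, adjusted p = 0.561), with groups that overlapped. Casp1, the inflammatory caspase, differed by -0.23 (SE 0.122). Among interleukin and interferon-gamma signalling genes (20 measured, 15 higher and 5 lower, median 0.040), Il18, an epithelial cytokine, differed by -0.35 (SE 0.158, adjusted p = 0.602). Of the 15, Ifng, Il1b, Il1r1 and Il23a had the flat profile of Lcn2. Positive differences were found in 5995 of all 10401 genes. Tyk2, a kinase that binds cytokine receptors, differed by -0.13 (SE 0.0571) and Il17rc, an interleukin-17 receptor chain, by 0.23 (SE 0.127).

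Epithelial chemokines (13 measured, 7 higher and 6 lower, median 0.013) included the smallest p of all other defence genes. Ccl6, a chemokine of myeloid cells and epithelium, was -0.034, -0.24, 0.11 and 0.034 on WT 1 to 4 and -0.53, -0.95, -0.53 and -0.71 on IE-Cpr-null 1 to 4. Every IE-Cpr-null array lay below every WT array, and the difference was -0.65 (SE 0.116, 95% interval -0.92 to -0.38, limma adjusted p = 0.17). Macrophage and dendritic cell markers (11 of 14 measured) averaged -0.84 to -0.21 in IE-Cpr-null and -0.37 to 0.67 in WT, and their part in the Ccl6 values was not tested. Ccl25, which draws lymphocytes to the small intestine, differed by -0.14 (SE 0.0778) and Ccl9 by -0.45 (SE 0.292).

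Of the mucus barrier genes (10 measured, 5 higher and 5 lower, median -0.054), 3 had a limma unadjusted p under 0.05, against 8.69% of all genes. None (0) of the 10 passed the adjusted threshold. Fcgbp, a mucus-binding protein of goblet cells, was -0.051 to 0.055 in WT and -0.30 to -0.12 in IE-Cpr-null, a difference of -0.18 (SE 0.0486, limma adjusted p = 0.329). Clca1, a goblet cell metalloprotease, differed by -0.49 (SE 0.198, adjusted p = 0.538), and Muc3, a membrane mucin, by -0.39 (SE 0.125, adjusted p = 0.416). The mean of goblet cell markers (8 of 9 measured, Fcgbp and Clca1 among them) was 0.42 on IE-Cpr-null 1 and -0.34 to -0.26 on IE-Cpr-null 2 to 4. The first value rested on Retnlb, a goblet cell resistin-like protein, at 3.69 there. Leaving out Retnlb was a setting chosen after seeing the data. The other 7 markers then averaged -0.053 on IE-Cpr-null 1 and -0.29 to -0.13 on IE-Cpr-null 2 to 4. Among these, Fcgbp (-0.30), Tff3 (-0.28) and Zg16 (-0.23) were at their lowest on IE-Cpr-null 1. Spdef (0.36), Agr2 (0.087) and Clca1 (-0.087) were there at their highest of the IE-Cpr-null arrays, and Clca3a1 was 0.079.

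Of the other Reg and lectin genes (9 measured, 2 higher and 7 lower, median -0.078), Reg1, a pancreatic and intestinal lectin, was -0.60 to 0.18 in WT and -0.97 to -0.13 in IE-Cpr-null. Its difference was -0.52 (SE 0.225, limma adjusted p = 0.578). Pancreatic acinar markers had a median difference of -3.15, with 7 of 15 at a limma unadjusted p under 0.05, against 8.69% of all genes. WT 3 was the lowest WT array for both these markers and Reg1. Among the IE-Cpr-null arrays the acinar mean was highest on IE-Cpr-null 1 (-1.44), where Reg1 was -0.79. Reg1 was highest of these on IE-Cpr-null 4 (-0.13), where the acinar mean was -3.88. The part of acinar RNA in the Reg1 values was not tested. Zg16, a lectin of goblet cells, differed by -0.10 (SE 0.0503) and Reg4 by -0.24 (SE 0.219). Secreted antimicrobial peptides and enzymes (16 measured, 7 higher and 9 lower, median -0.078) had Pla2g2d at -0.11 (SE 0.048, adjusted p = 0.573), Rnase4 at -0.27 (SE 0.136) and Pla2g10 at -0.31 (SE 0.174).

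All 4 measured oxidant-producing genes had positive differences (median 0.24). Cyba, the p22phox subunit of NADPH oxidases, differed by 0.37 (SE 0.166, limma adjusted p = 0.602), Noxo1 by 0.14 (SE 0.08) and Nox4 by 0.047 (SE 0.0462). Duoxa2, the maturation factor of Duox2, was -0.88 to 0.36 in WT and -1.85 to 1.32 in IE-Cpr-null, with a difference of 0.35 (SE 0.680) inside that spread. It was chosen because Duox2 itself is not analysed here. Acute phase and metal sequestration genes (10 measured, 9 higher and 1 lower, median 0.033) had Slc39a14, a zinc and iron importer, at -0.26 (SE 0.0931, limma adjusted p = 0.467). Of the 9, Saa3, Saa4, S100a8, S100a9 and Hamp2 had the flat profile of Lcn2. Orm1, Hp and Hamp were the genes highest on the hepatocyte-rich IE-Cpr-null 2 and 3. Differences were positive for 5995 of all 10401 genes. In the immunoglobulin A list (6 measured, 4 higher and 2 lower, median 0.033), Tnfrsf13c, the BAFF receptor gene, differed by 0.055 (SE 0.0358) and Tnfsf13b, its ligand gene, by 0.21 (SE 0.194).

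**Figure D4:**
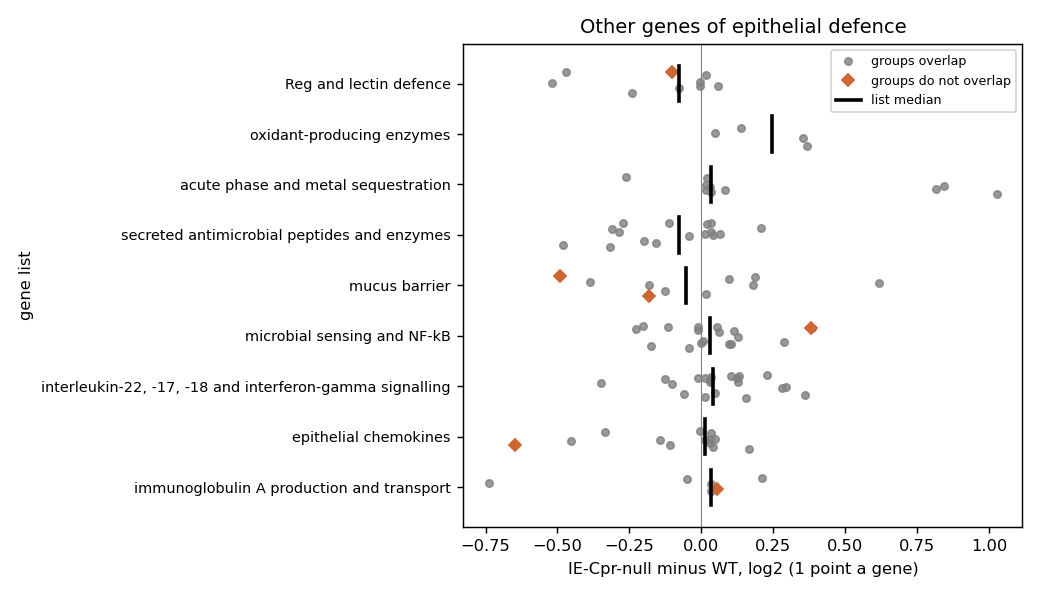
Difference between genotypes on the log2 scale (horizontal axis) for 106 other defence genes in 9 lists, with 1 point a gene, diamonds for genes whose groups do not overlap and a black line at the list median. Most points lie near 0, Ccl6 (-0.65) is the lowest of the diamonds and Relb (0.38) the highest.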

How the data were processed

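Total RNA from enterocytes was labelled with biotin and hybridised to single-colour arrays, per the labels' protocols. The deposited values were log2 per probe set and array, made by the authors with GCRMA, per the submitters' processing notes (its version is not given in the sources used). The median of the 4 WT arrays was 0 in every probe set, so the values had been centred; detection above background is unknown and no probe set was filtered. The number of arrays limits the precision.

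Each of 18443 probe sets was tested with limma 3.58.1 in R 4.3.3 (lmFit, eBayes, two-sided, Benjamini-Hochberg over all, threshold 0.05), and 10401 genes likewise on the mean of their probe sets. The prior had 1.54 degrees of freedom. The fit was tested on simulated data. Probe sets were named from GEO's platform annotation, and 616 with several symbols and 1138 unnamed ones are not named here.

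The members, lists and alternatives were chosen with earlier results of these data known. Genes named were all members, up to 3 per defence list by smallest p and those past the threshold, markers by widest range, and the 3 genes most correlated with each member. Other genes named (Alb, Hp, Orm1, Hamp, Saa3, Saa2, Duoxa2, Jchain, Tff3, Agr2, Clca3a1, Pla2g2f and those sharing the Lcn2 profile) were chosen after their values were seen. Alignments used Biopython 1.88 (match 2, mismatch -1, gap opening -5, extension -1). Alternatives were quantile normalization, median centring, array weights, the replicate block, a robust prior, no shared-probe sets, an SD filter and left-out arrays.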

Additional observations from a re-analysis of the deposited data

Results flagged for a closer look

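In 5 of the 40 groups of 4 arrays examined (10 defence probe sets and 10 marker lists, each in both genotypes), 1 array stood apart from the others by Dixon's criterion (critical value 0.829), and in all 5 it was IE-Cpr-null 1. Chance alone flags about 1 in 20 groups, and the groups share arrays. Reg3b 1416297_s_at was -0.81 there and 0.33 to 0.41 on IE-Cpr-null 2 to 4. Pla2g2a was 1.88 against -0.34 to -0.014. The mean of goblet cell markers was 0.42 against -0.34 to -0.26. It rested on Retnlb (3.69 against -1.19 to -0.64), and without Retnlb, a setting chosen after seeing the data, it was -0.053 against -0.29 to -0.13. The mean of pancreatic acinar markers was -1.44 against -4.01 to -3.85, and that of muscle and stroma markers 4.20 against -0.43 to -0.38.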

How the results depend on the processing

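No defence probe set (0) passed the adjusted threshold under any of 17 alternatives in limma, where adjusted p-values of the 10 probe sets were never below 0.178. The sign changed without the muscle-rich arrays (WT 2 and IE-Cpr-null 1) for Reg3a (0.020), Pigr 1450060_at (0.044), Pla2g2a (-0.18) and Lypd8 (0.0085). It changed without the hepatocyte-rich arrays for Reg3b (-0.27 and -0.16) and Reg3g (-0.18), and with array weights for Pla2g2a (-0.22). With 1 array left out, differences ran from -0.53 to 0.015 for Reg3a, from -0.052 to 0.36 and from -0.043 to 0.24 for Reg3b, from 0.071 to 0.50 for Reg3g, from -0.062 to 0.022 for Pigr 1450060_at and from -0.17 to 0.57 for Pla2g2a. Lcn2, Saa1 and Pigr 1455490_at kept their sign wherever they were measured. The cause of these changes was not tested.

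Over the whole table, 3 probe sets were higher and 1 lower. Counts were 1 and 0 with quantile normalization, 352 and 389 with array weights, 6 higher after the lower-SD part of the table was removed, 1 and 2 without the muscle-rich arrays, 0 lower without the hepatocyte-rich arrays, and 1 to 12 higher and 0 to 4 lower with 1 array left out. Other defence genes past the threshold numbered 5 of 106 with array weights (Ccl6, Relb, Fcgbp, Pla2g2d and Slc39a14) and 0 to 1 with 1 array left out. Array weights were the setting that passed 352 and 389 of the 18443 probe sets, and the share of all genes passing there is not given. The 5 are therefore not read as particular to defence genes. With the replicate block 1 probe set was higher and 0 lower. Deviations of same-numbered arrays correlated at -0.058, -0.041, 0.26 and 0.13, so the numbers were not taken as pairs. Probe sets that share probes, and those of low SD, have no value where those filters removed them.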
